A study of Mus musculus with 18 samples.

Results

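The 9 interferon-stimulated genes Ifi27l2a, Irgm1, Ifit1, Ifit3, Isg15, Irf7, Ifitm3, Bst2 and Gbp7 were followed by name through every count matrix of a single-cell RNA-seq study of the postnatal mouse heart, out of 35843 Ensembl genes in those matrices. Ifi27l2a and Irgm1 were picked because earlier values in cardiomyocytes at P7 stood apart from those at P4 or P14, so those contrasts are described here without a test. The labels give Myh6/Esr1-Tomato mice for both sets, in which a tamoxifen-dependent Cre under the cardiac Myh6 promoter switches on a red reporter in cardiomyocytes. The study's methods give tamoxifen in the first days after birth. Uninjected animals (labelled wildtype) were taken on postnatal day 4 (P4, 2 mice), P7 (2 mice), P14 (2 mice) and P28 (5 mice). In a second set, lentivirus carrying a hairpin against Jun (shJun, 2 mice) or a non-targeting hairpin (shNT, 2 mice) had been injected into the newborn ventricle, and hearts were taken at P28. Single cells were picked by imaging on ICELL8 nanowell chips (12 uninjected, 6 knockdown), and counts are unique molecular identifiers (UMIs), 1 for each captured mRNA molecule.

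Interferons act through cell-surface receptors and JAK kinases, which phosphorylate STAT proteins. These, alone or with IRF9, enter the nucleus and switch on interferon-stimulated genes through short DNA elements named ISRE and GAS. The encoded proteins restrict viruses and intracellular microbes, and many resident cells of healthy tissue carry a low tonic level of them.

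Of 15993 wells with a cell in the uninjected set, 12794 passed the filter (median 9827 UMIs per cell), and 7057 of 7482 passed in the knockdown set (median 31908). Chips used a common set of well barcodes, 4902 of 5070 of which occurred on more than 1 of the 18 chips, so a barcode alone did not identify a cell. Cells were clustered without the interferon genes and named from fixed markers. Endothelial-like (EC-like, 2735 cells), fibroblast-like (FB-like, 2421), macrophage-like (MP-like, 1120) and cardiomyocyte-like (CM-like, 2934) classes were compared. Every one of the 8 markers of each class was detected in the sums of that class. One CM-like cluster of P28 (92 cells) was led partly by immune genes (Rgs1, Ccl4, Cxcl2 and Plek) beside muscle genes, and results in CM-like cells are also given without it. Per the labels, P4 and P7 ventricles were digested with a kit and P14 and P28 hearts by Langendorff perfusion, so age and digestion cannot be told apart between P7 and P14. UMIs were summed per animal and class (at least 20 cells), and a level is given as CPM, the gene's UMIs per 1000000 UMIs of that sum. CM-like cells at P7 reached that minimum in only 1 mouse (28 cells).

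To show the DNA through which these genes are known to respond, the 160 bases before the RefSeq start site are printed for the 6 members whose matches to the ISRE core (GAAA and GAAA with 2 bases of any kind between them) lie there (GRCm38.p6, read 5′ to 3′ on the gene's strand, matches on either strand in capitals).
Gbp7 (chr3:142530176-142530335, plus strand): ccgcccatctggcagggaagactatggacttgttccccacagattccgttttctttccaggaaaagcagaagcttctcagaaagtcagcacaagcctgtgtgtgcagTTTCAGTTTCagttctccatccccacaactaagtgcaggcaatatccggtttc
Isg15 (chr4:156200819-156200978, minus strand): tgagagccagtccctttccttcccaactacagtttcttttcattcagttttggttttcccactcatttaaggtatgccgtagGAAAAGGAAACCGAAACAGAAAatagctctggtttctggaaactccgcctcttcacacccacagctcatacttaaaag
Bst2 (chr8:71537473-71537632, minus strand): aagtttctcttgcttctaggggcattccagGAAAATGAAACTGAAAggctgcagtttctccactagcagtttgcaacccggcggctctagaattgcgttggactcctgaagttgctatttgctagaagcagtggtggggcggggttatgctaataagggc
Irgm1 (chr11:48871421-48871580, minus strand): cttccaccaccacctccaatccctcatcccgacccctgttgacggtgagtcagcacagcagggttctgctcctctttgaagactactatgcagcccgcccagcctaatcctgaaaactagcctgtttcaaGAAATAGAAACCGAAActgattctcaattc
Ifit3 (chr19:34583369-34583528, plus strand): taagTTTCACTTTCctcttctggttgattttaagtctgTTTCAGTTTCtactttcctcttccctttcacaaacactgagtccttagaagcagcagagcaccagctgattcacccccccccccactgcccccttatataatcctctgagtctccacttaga
Ifit1 (chr19:34640729-34640888, plus strand): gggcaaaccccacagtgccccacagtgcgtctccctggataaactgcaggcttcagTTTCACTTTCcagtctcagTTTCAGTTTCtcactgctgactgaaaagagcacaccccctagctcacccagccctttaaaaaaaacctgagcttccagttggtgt
The ISRE core occurred in 7 of the 8 member promoters with a RefSeq entry, against 3.44% of 32851 mouse promoters of the same 300 bases (250 before the start and 50 after it). Isg15 held 3 overlapping matches from 78 bases before the start, and Irgm1 and Bst2 each held 2 overlapping matches, starting 30 and 130 bases before it. In Ifit3 and Ifit1 the pair read TTTCACTTTC and TTTCAGTTTC in both promoters. Both Ifitm3 matches lay after its start site, and Irf7 had no match in this window. The GAS core TTCNNNGAA occurred in 3 of the 8 (Gbp7, Ifitm3 and Bst2), against 8.30% of all promoters. In Gbp7 these read TTCCAGGAA and TTCTCAGAA, and TTCCAGGAA also occurred in Bst2, where it overlaps the ISRE matches. These matches are descriptions of sequence only. The Ifi27l2a gene lies at chr12:103442167-103443680 on the minus strand.

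The genes differed widely in how many wells carried them. Among uninjected wells that passed the filter, Ifi27l2a had at least 1 UMI in 5259 wells (41.1%, exact 95% interval 40.3 to 42.0) and Ifitm3 in 8873 (69.4%). Bst2 was counted in 2160 wells (16.9%), Gbp7 in 2060 (16.1%), Irgm1 in 1067 (8.34%), Irf7 in 762 (5.96%), Ifit3 in 530 (4.14%), Ifit1 in 419 (3.28%) and Isg15 in 308 (2.41%). These intervals cover counting error only. With each well thinned to 2000 UMIs (988 shallower wells left out), the shares were 26.9% for Ifi27l2a, 50.1% for Ifitm3 and between 0.686% and 7.60% for the other 7.

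The antiviral RNA-binding genes came from few, strongly positive wells. Ifit1, whose protein binds viral RNA caps, reached 436 UMIs in a single uninjected well, while the median positive well held 2. Ifit3, a partner of Ifit1, reached 220 UMIs against a median of 2. In the P14 mouse 2 FB-like sum, all UMIs of Ifit1 (187.8 CPM) and of Ifit3 (12.8 CPM) came from 1 well. In EC-like sums at P28, the top well gave between 17.0% and 91.6% of the Ifit1 UMIs of an animal. Levels of both Ifit genes therefore rest on single wells in many sums. Ifit3b, the Ifit1-like genes and Ifi27l2b are related genes, and whether reads were split between them and the members was not tested.

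Ifi27l2a, a small interferon-induced membrane protein of the Ifi27 family, was counted mainly in MP-like and FB-like cells at every stage. MP-like sums held 658.9 and 635.3 CPM in the P4 mice, 1193 and 944.3 in the P7 mice, 611.7 and 727.8 in the P14 mice, and 3120, 2749, 2043, 3675 and 4018 at P28. FB-like sums held 506.4 and 377.5 CPM in the P4 pair, 607.4 and 481.5 in the P7 pair, 347.9 and 1054 in the P14 pair, and 2805, 3625, 2093, 2477 and 3349 at P28. In both classes every P28 animal lay above every younger animal, and the P28 ranges of the 2 classes overlapped. EC-like sums held 49.5 and 64.2 CPM in P4, 103.2 and 60.7 in P7, 36.1 and 8.33 in P14, and 639.3, 685.7, 262.0, 313.2 and 569.4 at P28. CM-like sums held 10.2 and 1.94 CPM at P4, 6.38 and 5.96 at P14, and 116.0, 142.5, 29.3, 47.8 and 103.1 at P28. The order at P28 was thus MP-like and FB-like, then EC-like, then CM-like, with no overlap below the first 2.

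**Figure D1:**
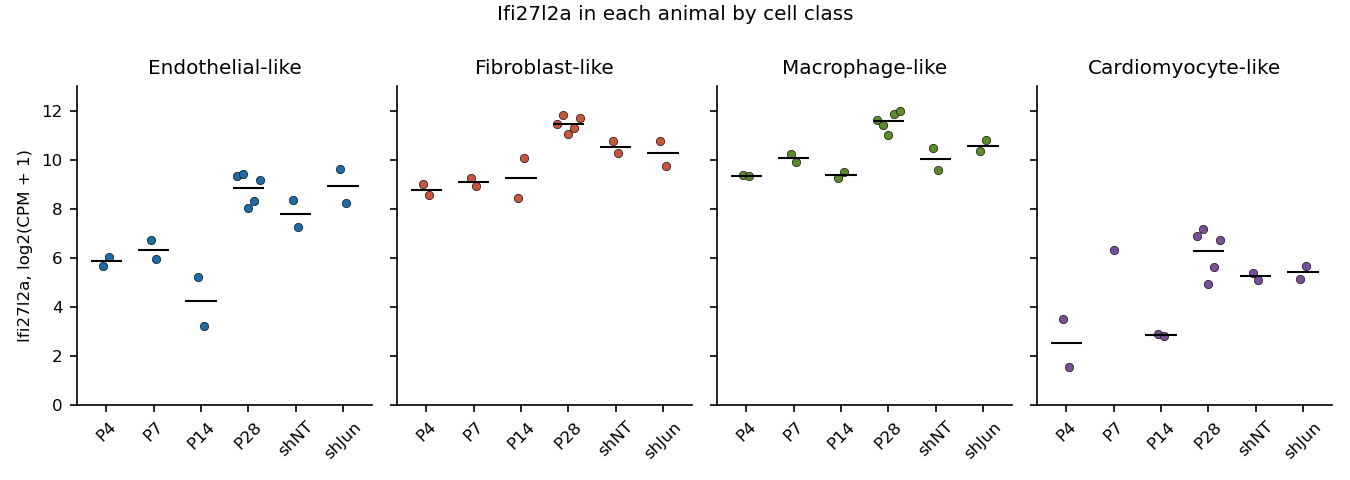
Ifi27l2a in each animal, as log2(CPM + 1), by stage or hairpin (horizontal axis) in 4 cell classes. Points are animals, bars are group means where a group has at least 2 animals. MP-like and FB-like points lie highest, and P28 points lie above the younger stages in each class except for the single P7 CM-like sum, which lies within their range.

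The P7 cardiomyocyte value that drew attention to Ifi27l2a rested on few wells. P7 mouse 2 held 77.6 CPM in 28 CM-like cells. P7 mouse 1 had 11 CM-like cells, too few for a sum, and 97.1% of their 786 Ifi27l2a UMIs came from 1 well. No Irgm1 UMI was counted in those 11 cells, and the P7 mouse 2 level of 5.75 CPM came from 1 well. Irgm1, a GTPase that acts on membranes and autophagy, held 9.35 and 1.83 CPM in the CM-like sums at P4, and 27.3 and 25.9 at P14, when the top well gave 57% and 50% of its UMIs.

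The next question was in which cells of the uninjected heart each gene was counted, asked with the animal as a block over 43 sums and 15518 genes. Against EC-like cells, Ifi27l2a was 3.58 ± 0.334 log2 units higher in MP-like cells (SE, edgeR adjusted p = 1.35e-10) and 3.02 ± 0.326 higher in FB-like cells (adjusted p = 9.43e-09), in 11 of 11 animals for both. It was lower in CM-like cells, with a log2 difference of -1.67 ± 0.332 (adjusted p = 0.000163), in 9 of 10 animals (-1.95 without the P28 cluster with immune genes). With P4 and P7 animals alone, the MP-like and FB-like differences kept their calls, while that of CM-like cells did not (adjusted p = 0.232). Cardiomyocyte values at P4, P7 and P14 had entered the choice of Ifi27l2a and Irgm1. Their CM-like contrasts, and their part in the CM-like count of calls below, are therefore not independent of that choice.

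Most of the other calls went the other way, being lower than in EC-like cells. Against these, 4 of 9 members passed in MP-like cells (background 19.2% of all genes in either direction), 5 in FB-like cells (13.4%) and 5 in CM-like cells (27.5%). Ifit1 was lower in all 3, with log2 differences of -3.13 ± 0.676, -2.42 ± 0.625 and -2.91 ± 0.634. Bst2, which tethers budding virions to the cell surface, was lower in FB-like cells (-1.47 ± 0.252) and in CM-like cells (-2.98 ± 0.281), and its MP-like difference did not pass (-0.07 ± 0.246). Gbp7, a guanylate-binding protein of the interferon-γ response, was lower in FB-like cells (-2.01 ± 0.484), as was Irgm1 (-1.32 ± 0.430). Ifitm3, which blocks viral entry at endosomes, was lower in CM-like cells (-2.62 ± 0.229) and in MP-like cells (-0.68 ± 0.205). Ifit3 was lower in CM-like cells (-2.77 ± 0.586). Irf7, the transcription factor that amplifies type I interferon production, was higher in MP-like cells by 1.69 ± 0.519 (adjusted p = 0.0164). Isg15, a ubiquitin-like modifier, passed in none of the 3. Irgm1 did not pass in MP-like cells (-0.01).

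**Figure D2:**
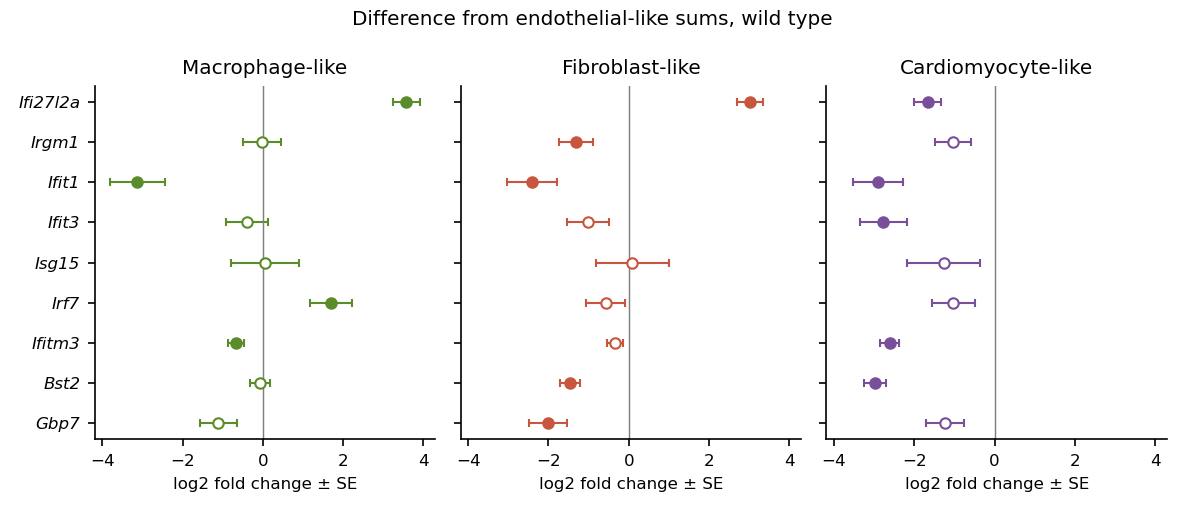
Log2 fold change (horizontal axis) of each member in MP-like, FB-like and CM-like sums against EC-like sums of uninjected animals. Points are edgeR estimates, bars 1 SE, filled points pass at an adjusted p of 0.05. Ifi27l2a lies far right in the first 2 panels, and all 9 members lie left of 0 in CM-like cells.

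The wider interferon list (69 further genes: receptors, sensors, brakes, effectors and GTPases) had 64 tested members in these contrasts. In MP-like cells 14 were higher and 8 lower than in EC-like cells. Epsti1 (5.35 ± 0.673), Mx1 (5.04 ± 0.808), Slfn2 (3.99 ± 0.555) and Ifi204 (2.63 ± 0.463) were higher, and the GTPases Gbp4 (-3.54 ± 0.726), Gbp9 (-2.28 ± 0.534) and Gbp2 (-1.97 ± 0.467) were lower. In FB-like cells 1 was higher (Ifitm1, 2.496 ± 0.693) and 23 were lower, among them Tgtp2 (-4.44 ± 0.655) and Ly6e (-2.05 ± 0.234). In CM-like cells 1 was higher, the receptor chain Ifngr2 (1.47 ± 0.242), and 38 were lower, with Ifitm2 (-2.68 ± 0.240) and Ly6e (-2.73 ± 0.253) of the smallest p. The median over the list was 0.07, -1.19 and -1.76 in the 3 classes, against -0.07, -0.07 and -0.13 over all genes tested.

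Between P4 and P14 no member passed in EC-like, FB-like or MP-like cells. The background of calls was 0.0191%, 0.0296% and 0.0777% of genes for P7 against P4, and 0.433%, 0.762% and 0.587% for P14 against P7. At an unadjusted p under 0.05 there were 0, 0 and 1 members for P7 against P4, where 4.15%, 2.64% and 9.94% of all genes reached it. For P14 against P7 there were 2, 2 and 0 members, against 11.7%, 14.6% and 18.9% of all genes. From P7 to P14, Ifit1 differed by 6.16 ± 1.66 log2 units in FB-like cells (adjusted p = 0.115), where the 1 well of P14 mouse 2 described above gave nearly all of its P14 UMIs, and the estimate was -1.21 without that animal. Of the wider list, Ifngr1, the ligand-binding chain of the interferon-γ receptor, was higher in FB-like cells at P14 than at P7 (2.84 ± 0.599, adjusted p = 0.0420).

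P28 was then compared with P14, the pair of stages that shared the Langendorff digestion. Each stage was run on its own chips, so age and chip cannot be told apart in this or any other comparison of stages. Ifi27l2a was higher at P28 in EC-like sums by 3.74 ± 0.663 log2 units (adjusted p = 0.0189), the only member of the 9 to pass in any class (background 0.401% of genes in EC-like, 0.0666% in FB-like, 0.0864% in MP-like and 0.0129% in CM-like cells). That call was lost without P14 mouse 2 (2.94, adjusted p = 0.193). In FB-like cells the difference was 1.85 ± 0.383 (adjusted p = 0.0655), in MP-like cells 1.79 ± 0.399 (0.110) and in CM-like cells 3.16 ± 0.693 (0.108). DESeq2 called it in all 4 classes, but the background shares above are those of edgeR, and none is given for DESeq2. Cardiomyocyte values at P14 had entered the choice of Ifi27l2a, so its CM-like contrast and call are not independent of that choice. Without the P28 cluster with immune genes, which gave 722 of the 2085 Ifi27l2a UMIs of CM-like cells at P28, the CM-like difference was 2.69 (adjusted p = 0.155). The P28 CM-like cluster led by Ttn and Myh6 held 18.6 CPM of Ifi27l2a, and the others without immune genes 62.7, 88.3 and 50.4. The 2 CM-like clusters of P14 held 8.56 and 1.61. The part of this make-up in the difference was not tested. In each class the 5 P28 animals lay above both P14 animals.

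Wells of the P28 chips held more Ifi27l2a outside these classes too, and these values belong beside the EC-like result. Erythroid-like wells, whose 1 cluster at P28 was led by globin genes, stand here for cells not expected to make the transcript. They had a UMI in 532 of 750 wells at P28 (70.9%, exact 95% interval 67.5 to 74.2, median 2567 UMIs per well), against 539 of 749 EC-like wells (72.0%, interval 68.6 to 75.2, median 7188). Thinned to 2000 UMIs the shares were 47.2% and 40.6%. By level, erythroid-like sums of the 5 P28 mice held 1100, 460.5, 534.2, 815.0 and 535.3 CPM, above the EC-like sums of mice 1, 3 and 4 and below those of mice 2 and 5. At P14 the erythroid-like wells fell into 2 clusters. The cluster led by red cell genes such as Slc4a1 and Hba-a1 had a UMI in 9 of 136 wells (6.62%), and the other, with no globin gene among its top 10, in 26 of 144 (18.1%), against 32 of 527 EC-like wells (6.07%). CM-like wells lay below both at P28 (21.8%, 9.14% thinned). The EC-like shares thus lay close to those of globin-led wells at both stages. Those of P14 were not thinned, with a median of 25968 UMIs in the cluster led by red cell genes and 12211 in the main EC-like cluster. A UMI in an EC-like or CM-like well is not read here as expression by that cell, and its source was not tested. MP-like wells (91.7%, 78.0% thinned) and FB-like wells (87.8%, 72.9% thinned) lay above the erythroid-like share at P28. In control wells that received no cell, 24 UMIs of Ifi27l2a were counted in 13 of 61 wells at P28 (1502 CPM of 15981 UMIs) and none in 20 wells at P14 (of 2244 UMIs).

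Marker levels of other classes also differed between these stages. The summed level of the 8 macrophage markers in EC-like sums was 30.6 to 46.1 CPM at P14 and 479.7 to 1172 at P28, and that of the 8 fibroblast markers 198.9 to 973.9 and 1282 to 5268, with no defining marker at 0 in any sum. In FB-like sums the macrophage markers stood at 8.03 to 74.0 and 261.2 to 880.3 CPM, with 1 to 5 of the 8 at 0 at P14, and in CM-like sums at 14.0 to 59.8 and 123.3 to 450.4. Other lists were lower at P28 in EC-like sums. The 8 cardiomyocyte markers stood at 15480 to 15980 CPM at P14 and 1991 to 7227 at P28, while the ranges overlapped for the 6 erythroid markers (medians 143400 and 86000) and the 8 mural markers (520.0 and 394.5). Their part in the result was not tested.

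Among the other members, Bst2 and Ifitm3 were counted in a larger thinned share of EC-like than of erythroid-like wells at P28. Bst2 held 41.1 and 53.9 CPM in EC-like sums at P14, and 293.2, 263.5, 133.7, 307.2 and 214.2 at P28, a difference of 1.85 ± 0.436 log2 units (adjusted p = 0.0938). It was counted in 38.1% of EC-like wells at P28 (21.9% thinned), against 5.68% of erythroid-like wells after thinning. By level, erythroid-like sums held 7.62 CPM of Bst2 in P14 mouse 1 and 429.5, 39.2, 38.1, 33.35 and 50.3 in the P28 mice. The mouse 1 value lay above its EC-like sum, with 70.7% of its UMIs from 1 well, and those of mice 2, 3, 4 and 5 lay below. Each of these P28 values lay above that of P14 mouse 1. The Bst2 estimate was also above 0 in CM-like (2.47), MP-like (1.60) and FB-like cells (1.33), where it did not pass. Ifitm3 held 737.5 and 1537 CPM at P14, and 2555, 2767, 3196, 2777 and 2405 at P28 (0.85 ± 0.266, adjusted p = 0.236). Thinned shares of EC-like wells with Ifitm3 were 51.3% at P14 and 83.3% at P28, against 51.0% of erythroid-like wells at P28. Erythroid-like sums held 53.5 CPM of Ifitm3 in P14 mouse 1 and 1829, 629.4, 730.6, 623.0 and 607.2 in the P28 mice. They lay below the EC-like sum of each P28 mouse, but they too were higher at P28. The Bst2 and Ifitm3 differences between stages are thus not read here as particular to EC-like cells. For both genes the EC-like sums of P14 and P28 did not overlap.

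Ifit3 held 14.1 and 5.56 CPM in EC-like sums at P14, and 236.1, 71.5, 85.1, 75.3 and 98.4 at P28, without overlap (2.84 ± 0.748, adjusted p = 0.149). Between 29.2% and 57.9% of these P28 UMIs came from the top well of each animal. Erythroid-like wells held no Ifit3 UMI at P14, and their sums held 25.9, 6.82, 10.9, 1.63 and 16.2 CPM in the P28 mice. These lay below the EC-like sum of each P28 mouse, but they too were higher at P28. The Ifit3 difference is thus not read here as particular to EC-like cells. Irf7 held 3.42 and 7.78 CPM at P14, and 54.6, 34.9, 12.7, 170.5 and 34.8 at P28 (3.02 ± 1.03, adjusted p = 0.278). Erythroid-like sums held 1.995 CPM of Irf7 in P14 mouse 1 and 133.3, 27.3, 17.8, 37.4 and 32.3 in the P28 mice. They lay above the EC-like sums in mice 1 and 3 and below them in mice 2, 4 and 5. In mouse 1, 94.4% of the erythroid-like UMIs came from 1 well. The Irf7 difference is thus not read here as particular to EC-like cells. Gbp7 went with neither Ifit3 nor Irf7 in EC-like sums, at 124.7 and 274.4 CPM at P14 and 85.2, 352.9, 276.6, 299.3 and 209.0 at P28 (-0.12 ± 0.483). Irgm1 overlapped as well in EC-like cells (0.39 ± 0.562), and in CM-like cells its estimate was below 0 (-0.74 ± 0.567). Cardiomyocyte values at P14 had entered the choice of Irgm1 too, so that CM-like estimate is not independent of the choice.

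**Figure D3:**
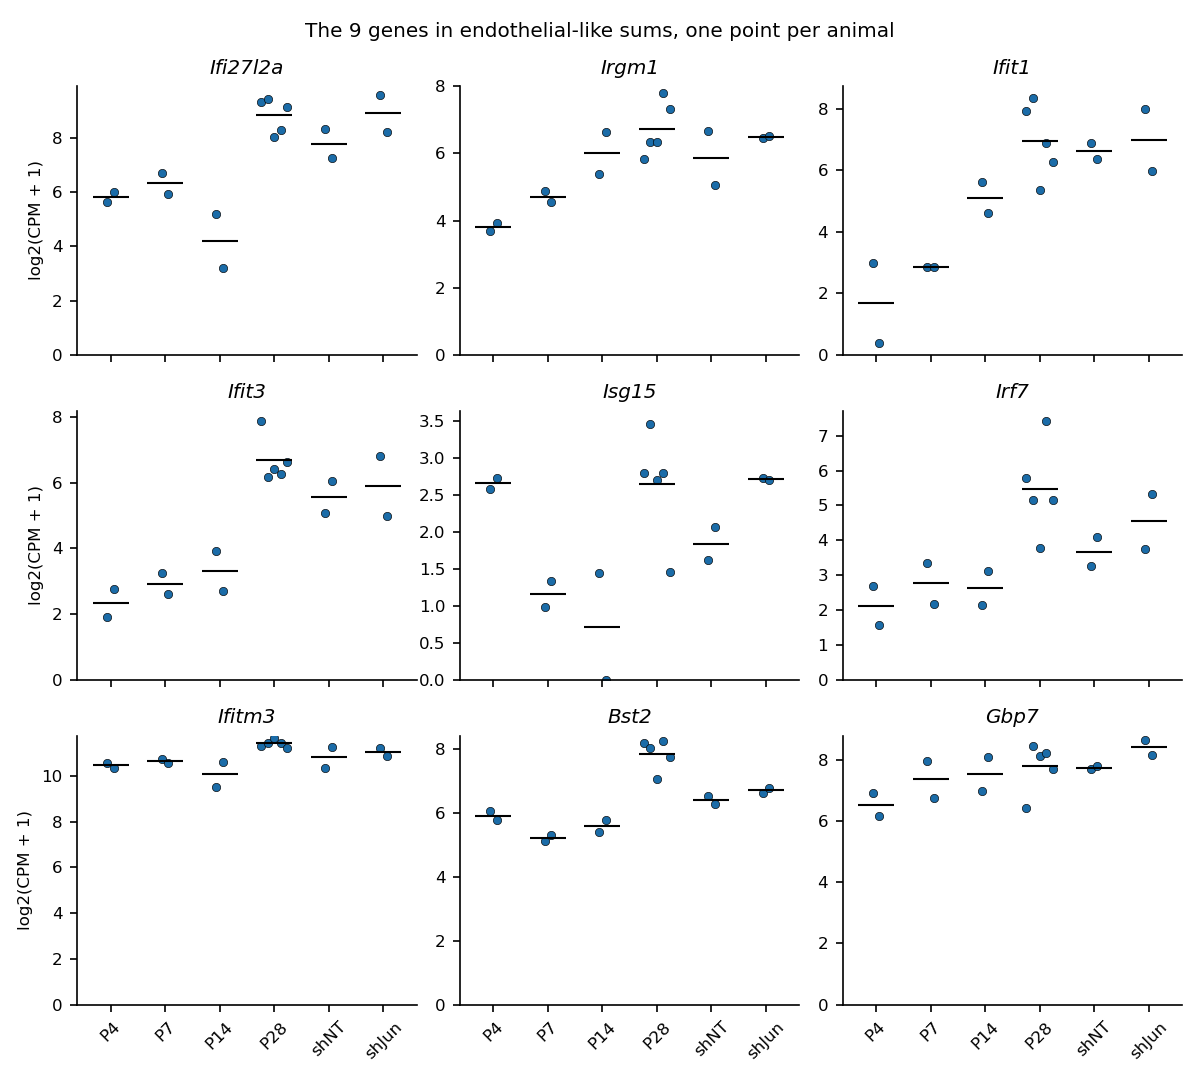
Each of the 9 genes in EC-like sums, as log2(CPM + 1), by stage or hairpin. Points are animals, bars group means. Bst2, Ifitm3, Ifit3 and Irf7 lie higher at P28 than at P14 in every animal, while Gbp7 and Irgm1 overlap between these stages.

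Counted by separation of the groups alone, 6 of 9 members had all P28 animals above both P14 animals in EC-like sums (Ifi27l2a, Ifit3, Isg15, Irf7, Ifitm3 and Bst2), against 11.3% of genes. In FB-like sums 5 did so (Ifi27l2a, Irgm1, Ifit3, Ifitm3 and Gbp7), against 12.1%. In MP-like sums 5 did so (Ifi27l2a, Irgm1, Ifit3, Ifitm3 and Bst2), against 18.8%, and in CM-like sums 5 (Ifi27l2a, Ifit3, Ifitm3, Bst2 and Gbp7), against 19.6%. Here and below, the CM-like counts and medians of members cover Ifi27l2a and Irgm1, whose choice had drawn on P14 values in these cells. The median log2 difference over the members tested was 1.81, 1.67, 1.41 and 2.04 in EC-like, FB-like, MP-like and CM-like cells, against 0.15, 0.28, 0.30 and 0.09 over all genes. At an unadjusted p under 0.05 there were 5, 4, 4 and 6 members, against 11.9%, 14.4%, 14.5% and 12.8% of all genes. All of these were higher at P28 except Ifit1 in FB-like cells, which was at -2.53 ± 1.05 and whose P14 UMIs came almost wholly from 1 well. Isg15 was too sparse for a test in MP-like cells. No gene of the wider list passed, and its medians were 0.83, 1.03, 0.84 and 1.38.

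**Figure D4:**
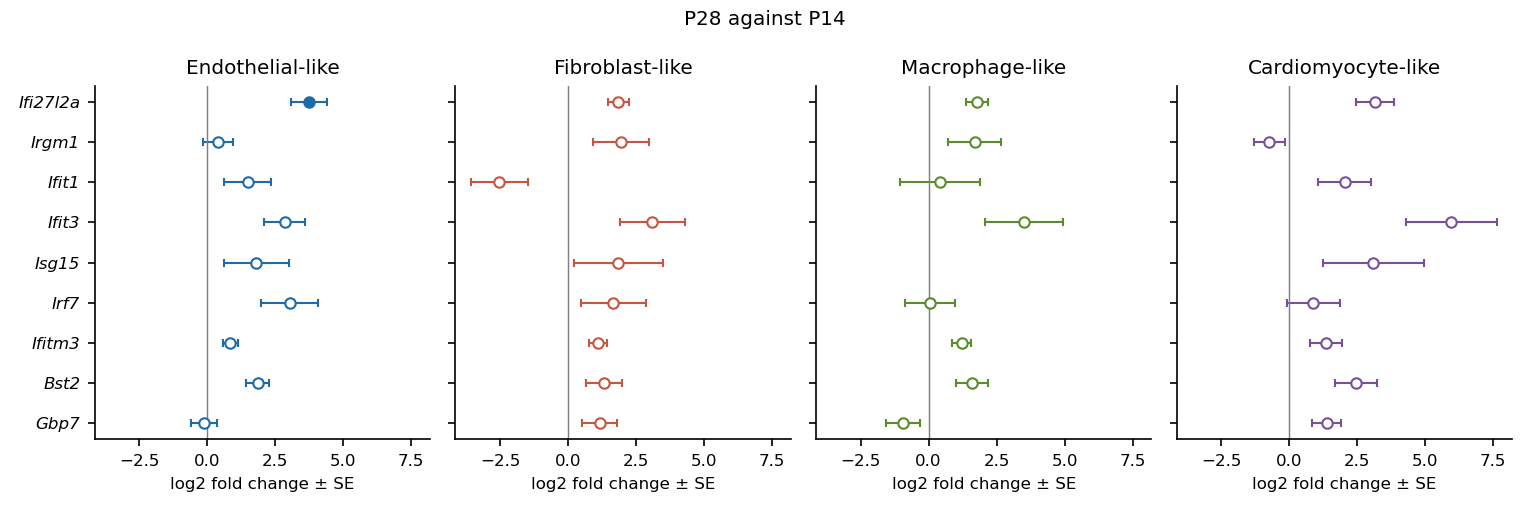
Log2 fold change of P28 against P14 (horizontal axis) for each member in 4 cell classes. Points are edgeR estimates, bars 1 SE, filled points pass at an adjusted p of 0.05. Only Ifi27l2a in EC-like cells is filled, and most points lie right of 0. Isg15 was not tested in MP-like cells.

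Whether the P28 change differed between classes was asked in 1 fit over 28 sums, added after the data were seen. The Ifi27l2a change minus that of EC-like cells was -1.96 ± 0.683 log2 units in FB-like cells (adjusted p = 0.476), -1.94 ± 0.664 in MP-like cells (0.275) and -0.74 ± 0.683 in CM-like cells (0.919). None of the 9 members passed (background 0%, 0.0993% and 0% in edgeR). In that order of classes, 1, 2 and 0 members had an unadjusted p under 0.05, against 7.86%, 11.1% and 6.35% of all genes.

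The share of wells with several members was larger at P28. At least 3 of the 9 genes had a UMI in 9.87% of EC-like wells at P14 and 58.3% at P28, in 23.4% and 59.9% of MP-like wells, in 7.97% and 47.5% of FB-like wells, and in 1.49% and 14.6% of CM-like wells. All 9 were counted in at least 1 EC-like well at P28. These shares move with the Ifi27l2a and Ifitm3 counts above and were not thinned.

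Across the 43 sums of uninjected animals, which share animals, chips and class differences, the level of Ifi27l2a was most like that of Emp3 (Spearman's rho 0.908), Rnase4 (0.891), the related gene Ifi27l2b (0.886), Adcy7 (0.884) and Lrp1 (0.881), of 15518 genes. Of the members, Irf7 came closest (0.716) and Gbp7 was farthest (-0.130). The closest pair among the 9 was Ifitm3 and Bst2 (0.839), followed by Ifit3 and Bst2 (0.808).

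The knockdown set asked whether the genes differed with silencing of Jun, an AP-1 transcription factor. Jun itself held 25.6 and 30.3 CPM in the CM-like sums of shJun mice and 53.3 and 64.5 in those of shNT mice, without overlap. The log2 difference was -1.12 ± 0.240 (edgeR unadjusted p = 0.00337, adjusted p = 0.9999). In EC-like sums Jun stood at 92.9 and 137.7 against 132.2 and 92.8 CPM, in MP-like sums at 175.0 and 81.1 against 68.4 and 242.3, and in FB-like sums at 200.9 and 190.5 against 69.9 and 124.0, where the shJun animals were higher. The hairpin was thus visible in CM-like cells only as a difference short of the adjusted threshold. The other 3 classes gave -0.20 ± 0.575, -0.41 ± 0.765 and 0.96 ± 0.524.

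No member passed between shJun and shNT in any class, and neither did any other gene (background 0% in all 4 classes). With edgeR, 580, 598, 582 and 405 genes had an unadjusted p under 0.05 in EC-like, FB-like, MP-like and CM-like cells (4.09%, 4.3%, 4.66% and 2.26%), and none of these was a member. DESeq2 called no member either. Ifi27l2a held 775.7 and 297.9 CPM in EC-like sums of shJun mice and 322.2 and 152.0 in those of shNT mice (1.01 ± 0.627). It held 1706 and 863.3 against 1737 and 1243 in FB-like sums (-0.26 ± 0.487) and 1286 and 1796 against 1412 and 768.1 in MP-like sums (0.50 ± 0.559). In CM-like sums it held 33.9 and 49.9 against 40.4 and 33.0 (0.14 ± 0.286), so that hairpin groups overlapped in all 4 classes.

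Ifitm3 was 179.1 and 187.7 CPM in CM-like sums of shJun mice against 68.3 and 148.9 in shNT mice (0.72 ± 0.364), and Ifit3 9.55 and 9.27 against 1.83 and 7.74 (0.94 ± 0.672). These 2, Irf7 and Isg15 had both shJun animals above both shNT animals, 4 of 9 members against 14.5% of genes. In the opposite direction there was no member, against 10.4% of genes. In EC-like sums 3 members were higher without overlap (Isg15, Bst2 and Gbp7, against 20.4% of genes) and none lower (10.5%). In FB-like sums 3 were higher (Ifit3, Irf7 and Bst2, against 16.1%) and Irgm1 was lower (13.5%), and in MP-like sums Ifitm3 was higher (15.7%) and Ifit1 lower (13.6%). Without shNT mouse 2, the CM-like fit had 1 shNT animal and took its variance from the shJun pair, so its calls are not read here. Irgm1 in FB-like cells was 34.3 and 58.2 against 92.8 and 150.7 CPM (-1.44 ± 0.615, unadjusted p = 0.0549 from edgeR), where 83.8% of the UMIs of shNT mouse 2 came from 1 well. Uninjected P28 animals held more Ifi27l2a than shNT mice in MP-like sums (2043 to 4018 against 768.1 and 1412 CPM), but virus and batch cannot be told apart between these sets.

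**Figure D5:**
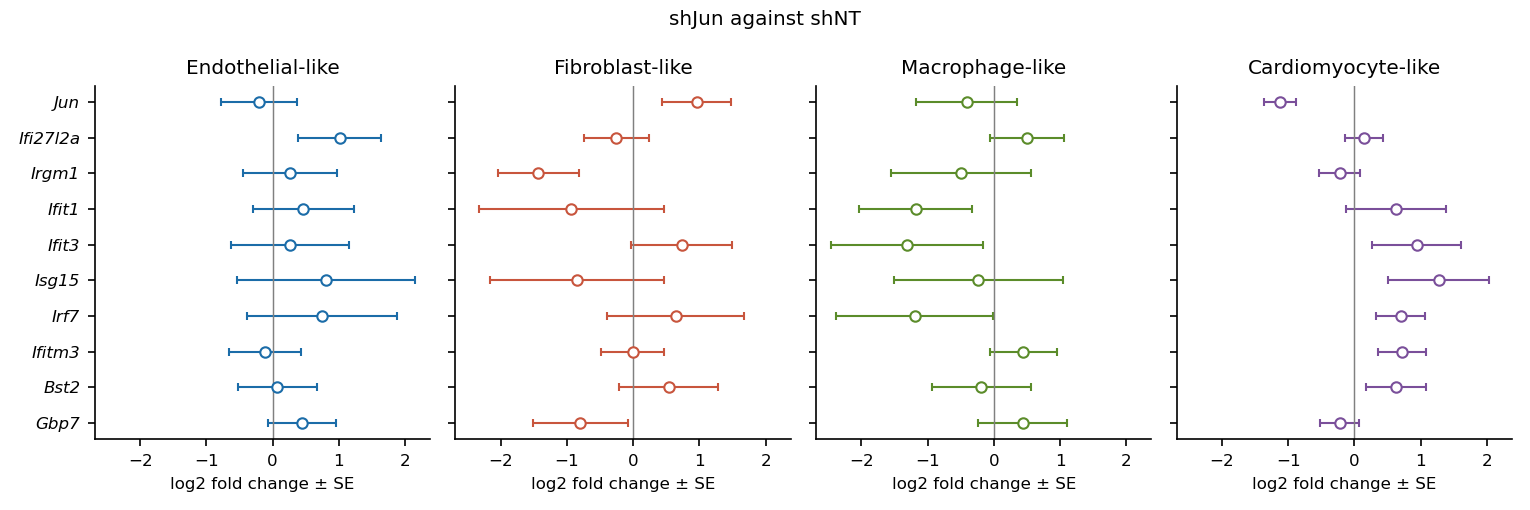
Log2 fold change of shJun against shNT (horizontal axis) for Jun and the 9 members in 4 cell classes. Points are edgeR estimates, bars 1 SE, and no point passes at an adjusted p of 0.05. Jun lies left of 0 in CM-like cells by several SE. Of the 9 members, 8 lie right of 0 in EC-like cells and 7 in CM-like cells, while 6 lie left of 0 in FB-like and in MP-like cells.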

How the data were processed

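Cells from mouse hearts were captured on ICELL8 chips. The authors deposited a count matrix (raw UMIs per Ensembl gene and well) and a well report for each of the 18 chips, and the submitters' processing notes name STAR 2.5.2b, Subread 1.4.6-p1 with featureCounts, and build mm10. Animal, stage and hairpin of each well came from the labels and well reports. The other deposited numbers in the well reports are read and UMI counts per well. Repeat chips of 1 animal were summed, since they are not separate replicates.

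Cells needed at least 500 genes and a depth within 2 SD of their set. Cells were clustered with leidenalg 0.10.2 (10 components, 30 neighbours) with 76 interferon genes left out. No doublet caller was run, since wells had been imaged. Clusters that the markers did not name were left out of the comparisons. UMIs were summed per animal and class (504486 to 19423420 UMIs per uninjected sum, 3045359 to 65066783 in the knockdown set) and tested with edgeR 4.0.16 (quasi-likelihood, TMM, filterByExpr), with Benjamini-Hochberg adjustment over all genes tested and a threshold of 0.05. CPM in the text is not TMM-scaled. On simulated counts of the EC-like P28 against P14 comparison, the step recovered 68% of log2 changes of 4, 28% of 3 and 0% of 2. For shJun against shNT it recovered 2% of log2 changes of 4 in EC-like cells and 98% in CM-like cells. Counts of members past the threshold are therefore limited by this spread. DESeq2 1.42.0, no low-count filter, sums per chip, a minimum of 1000 genes, at most 5000 UMIs per cell, sums of at least 10 cells, fewer stages and leaving out each animal were alternatives.

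The 9 genes and all lists were chosen with earlier results of these data known. Of the wider list all tested genes are counted, and at most 4 in each direction named by the smallest p. Hairpin animals that shared chips did not all vary together (correlation of deviations from group means -0.02 in EC-like, 0.08 in FB-like, 0.09 in MP-like and 0.35 in CM-like sums). Promoters came from RefSeq on GRCm38.p6. Strandedness of the counting is not given in the sources used here.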

Additional observations from a re-analysis of the deposited data

Results flagged for a closer look

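In 5 of 36 groups of 5 animals at P28, 1 animal stood far from the other 4 (a gap over 0.71 of the group's range). About 1 in 20 groups of normally distributed values would pass that limit. It was applied here to CPM, often led by single wells, in groups that share the same animals, so that rate need not hold. Each flagged value was the highest of its group. Ifit3 was 43.2 CPM in the CM-like sum of P28 mouse 2, with the next animal at 13.2. It was 236.1 CPM in the EC-like sum of mouse 1 (next 98.4) and 129.4 in the MP-like sum of mouse 4 (next 64.5). Irf7 was 170.5 CPM in the EC-like sum of mouse 4 (next 54.6), and Bst2 was 62.7 CPM in the CM-like sum of mouse 2 (next 22.0).

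Control wells, which received no cell of the study, held UMIs of 4 members above the limit of 3 counts. In 181 such wells, 31 UMIs of Ifi27l2a, 33 of Ifitm3, 7 of Irgm1 and 5 of Gbp7 were counted. The control wells include both negative wells and wells with a control RNA.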

How the results depend on the processing

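Of 307 recomputed counts of members and shares of wells, 272 stayed within the limits set for them, and of 858 recomputed values of single genes 788 kept their direction and call, 33 lost a call, 24 gained one and 13 changed sign. For P28 against P14, the count of members past the threshold was 4 in EC-like, 1 in FB-like, 2 in MP-like and 3 in CM-like cells with DESeq2, was 2, 2, 1 and 2 with no low-count filter, and was 2, 1, 1 and 1 with at most 5000 UMIs per cell, Ifi27l2a among them each time. The CM-like counts thus include a gene whose choice had drawn on P14 values in those cells. Shares over all genes are not given for the alternative settings, here or below, so these counts are not read as results about the members. Leaving out 1 animal gave 0 to 1 in EC-like cells (0 without P14 mouse 2) and 0 to 1 in FB-like cells (1 without either P14 animal). For P14 against P7, 1 member passed in EC-like and 1 in FB-like cells with no filter, 2 in FB-like cells with DESeq2, and 0 to 1 in FB-like cells with an animal left out. P28 mice 4 and 5, whose chips carry another name, were left out as an alternative added after seeing the data, which changed no count of members, and neither did leaving out the P28 cluster with immune genes, also added. The cause of these shifts was not tested.

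Against EC-like cells, P4 and P7 animals alone gave 1 member in MP-like, 2 in FB-like and 3 in CM-like cells, where fewer samples enter. At most 5000 UMIs per cell gave 8 in CM-like cells, and counts with an animal left out ran from 3 to 4, 4 to 5 and 5 to 6. Without the replicate block of animals 2 members passed in FB-like and 3 in CM-like cells. For shJun against shNT, blocking by shared chips (the replicate block of that fit) left every count at 0. So did every other setting except the omission of animals in CM-like cells, which left 1 animal for a hairpin and is not read here. Counting the globin-led cluster of shNT mouse 2 as EC-like, an added alternative, gave 0 too.

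Signs turned for values that had not passed. With at most 5000 UMIs per cell Jun was 0.36 in EC-like and 0.083 in MP-like cells, and Ifi27l2a 0.29 in FB-like and -0.22 in CM-like cells, where sums per chip gave -0.96. Leaving out an animal gave Jun -0.42 to 0.028 in EC-like and -1.10 to 0.89 in MP-like cells, and Ifi27l2a -0.77 to 0.12 in FB-like and -0.16 to 0.39 in CM-like cells (-0.0075 without shNT mouse 2). It also gave, for P14 against P7, Ifi27l2a -0.17 to 1.07 and Ifit1 -1.21 to 7.11 in FB-like cells and Ifit1 -3.93 to 7.17 in MP-like cells. Thinning wells to 2000 UMIs lowered each share of wells, to 26.9% for Ifi27l2a, 50.1% for Ifitm3, 7.60% for Gbp7, 6.51% for Bst2, 3.41% for Irgm1, 2.27% for Irf7, 1.84% for Ifit3, 1.28% for Ifit1 and 0.686% for Isg15. With 2 animals at P14 and 2 per hairpin, smaller differences were not detectable.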

Other observations

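Outside the 4 compared classes, Ifi27l2a was counted in 79.3% of 222 T cell-like wells at P28 (49.2% after thinning to 2000 UMIs), 76.6% of 64 B cell-like wells (58.9%) and 76.1% of 92 granulocyte-like wells (55.2%), against 70.9% of erythroid-like wells (47.2%). Mural-like wells held it in 12.6% at P4, 17.5% at P7 and 8.33% at P14, with no such cluster at P28. Among unnamed clusters at P28 the share was 87.4% of 706 wells (71.6% thinned).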
